A study of Rattus norvegicus with 12 samples.

Results

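A set of 5 genes of activin and transforming growth factor beta (TGF-beta) signalling was examined in rat striatum, Inhba, Tgfb1, Acvr1, Pmepa1 and Klf10. They were chosen because each was higher in dyskinetic rats given levodopa than in parkinsonian controls, so their values in that comparison are a description, with no test. They are 5 of the 9218 genes that had a named probe in the table, and each had 1 probe. The striatum of parkinsonian rats gave 12 samples, 1 array each. In 6 of these, called LID, the rats had received chronic levodopa as L-DOPA methyl ester at 25 mg/kg together with benserazide, a blocker of levodopa breakdown outside the brain, at 6.25 mg/kg, and were dyskinetic. The other 6, called PD control, were parkinsonian without chronic levodopa, and RNA of both groups dates from day 8. All groups share the parkinsonian state, and with no dyskinesia-free levodopa group the drugs and the abnormal movements cannot be told apart. The lesion method, the hemisphere, the sex and the number of animals behind a sample are not given in these sources, so the spread between arrays may in part be technical.

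Activins and TGF-betas are secreted dimers of one protein family. A dimer joins type II and type I receptor kinases at the cell surface, and the type I kinase phosphorylates receptor Smads, which enter the nucleus with Smad4 and change transcription. Activins and TGF-betas act mainly through Smad2 and Smad3, and bone morphogenetic proteins (BMPs) through Smad1, Smad5 and Smad9. Signalling induces its own inhibitors, such as Smad7 and Pmepa1. In the brain, activin A is made by active neurons and protects them in rodent models of injury, while TGF-beta is made largely by microglia and other glia.

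Inhba encodes the inhibin beta A subunit, whose homodimer is activin A. It lies on rat chromosome 17 (GRCr8, 53787159 to 53810942). Tgfb1 encodes the TGF-beta isoform released as a latent complex, and lies on chromosome 1 (90324312 to 90340627). Acvr1 encodes the type I receptor also called ALK2, which signals to the BMP Smads and also binds activin A. It lies on chromosome 3 (63387378 to 63506980). Pmepa1, also on chromosome 3 (182430193 to 182478649), encodes a membrane protein that captures receptor Smads and is induced by TGF-beta. Klf10, on chromosome 7 (71352612 to 71358680), encodes a Kruppel-like zinc finger factor first described as a TGF-beta-inducible early gene.

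Promoter windows of RefSeq on GRCr8, from 250 bases before to 50 bases after an annotated start, were matched by gene identifier for Inhba, Tgfb1 and Pmepa1, which is 3 of the 5 genes. They are shown to let a reader see which short elements of cAMP and Smad signalling are present near each start. Capitals mark matches on either strand to the cAMP response element TGACGTCA, its core TGACG, the AP-1 site TGANTCA, the Smad palindrome GTCTAGAC or the Smad box CAGAC.
Inhba, minus strand, chr17:53804459-53804758: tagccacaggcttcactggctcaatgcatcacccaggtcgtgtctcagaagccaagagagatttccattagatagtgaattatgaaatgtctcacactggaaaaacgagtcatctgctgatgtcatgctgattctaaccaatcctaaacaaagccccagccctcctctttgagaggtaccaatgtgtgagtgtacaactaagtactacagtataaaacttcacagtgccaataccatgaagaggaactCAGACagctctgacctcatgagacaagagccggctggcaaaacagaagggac
Tgfb1, plus strand, chr1:90324062-90324361: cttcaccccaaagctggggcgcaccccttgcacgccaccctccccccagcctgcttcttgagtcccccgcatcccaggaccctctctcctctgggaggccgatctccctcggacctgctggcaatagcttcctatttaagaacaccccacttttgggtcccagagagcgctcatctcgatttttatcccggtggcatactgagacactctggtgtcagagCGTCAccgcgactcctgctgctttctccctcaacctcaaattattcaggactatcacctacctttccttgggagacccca
Pmepa1, minus strand, chr3:182478600-182478899: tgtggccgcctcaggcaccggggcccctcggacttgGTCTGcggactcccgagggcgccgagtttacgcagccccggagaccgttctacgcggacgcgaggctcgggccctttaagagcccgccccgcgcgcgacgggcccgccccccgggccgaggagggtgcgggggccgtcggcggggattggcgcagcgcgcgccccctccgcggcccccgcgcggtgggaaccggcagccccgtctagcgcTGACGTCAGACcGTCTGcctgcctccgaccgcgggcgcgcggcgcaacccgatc

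The Pmepa1 window held the whole element TGACGTCA across the start, at window bases 247 to 254, a match found in 1.83% of all 33469 promoter windows and in 3.11% of those of genes on the array. The Smad box CAGAC at bases 253 to 257 overlapped its end, and further copies on the other strand lay at bases 259 to 263 and 37 to 41. The Tgfb1 window held 1 core TGACG, on the minus strand at bases 221 to 225, an element of 21.2% of all windows and 30.8% of those of genes on the array. The Inhba window held 1 Smad box at bases 249 to 253, an element of 50.1% of all windows (48.6% of those of genes on the array), and no TGACG. The Inhba window belongs to a start inside the annotated gene span, and a longer transcript begins upstream of it. None of the 3 windows held TGANTCA (7.33% of all windows) or GTCTAGAC (0.197%). Such matches describe letters and do not show that a factor binds there.

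The deposited intensity of Inhba ran from 88.9 through a median of 109 to 154 in PD control and from 207 through 304 to 451 in LID. LID replicate 4 was the highest and replicates 2 and 1 the lowest of their group, and in PD control replicate 5 stood highest. The means were 113 ± 22.2 in PD control and 307 ± 85.8 in LID (SD, n = 6 each), a 2.60-fold difference on the log2 scale after background correction (log2 difference 1.38 ± 0.17 SE).

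Tgfb1 ran from 62.1 through 68.7 to 74.6 in PD control and from 94.2 through 194 to 249.5 in LID. Its control values were close together, and near the lower quartile of all probes (68.9), whereas the highest LID array was 2.65 times the lowest. LID replicates 4, 6 and 3 were high and replicates 2 and 1 low. The means were 68.9 ± 4.53 and 183 ± 65.5 (log2 difference 1.26 ± 0.20, or 2.40-fold). Because the control signal was dim, the size of this difference depended on the background correction, and it was 2.31 with an offset of 1 in place of 50.

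Acvr1 had the smallest difference of the 5 genes and a narrow spread. It ran from 157 through 172 to 183 in PD control and from 227 through 253 to 277 in LID. The means were 171 ± 9.08 and 252 ± 20.4, 1.46-fold apart (log2 difference 0.54 ± 0.06). LID replicates 1 and 2 were again the lowest of their group.

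The Smad-binding inhibitor Pmepa1 gave a bright signal. It ran from 5879 through 6395 to 8125 in PD control and from 10070.1 through 12722 to 14282 in LID. LID replicates 2 and 1 were low, LID replicate 6 was highest, and PD control replicates 5 and 2 stood above the other controls. The means were 6820.3 ± 1005 and 12370.5 ± 1646, 1.81-fold apart (log2 difference 0.86 ± 0.11).

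The transcription factor gene Klf10 ran from 91.0 through 111 to 179.9 in PD control and from 211 through 239 to 319 in LID. In both groups replicate 6 was the highest array, and the lowest LID array was replicate 4, where Inhba and Tgfb1 were highest. The means were 119 ± 31.3 and 248 ± 37.9, 2.07-fold apart (log2 difference 1.05 ± 0.14). The gap between the highest control and the lowest LID array was 0.23 log2 units, the narrowest of the 5 genes.

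**Figure D1:**
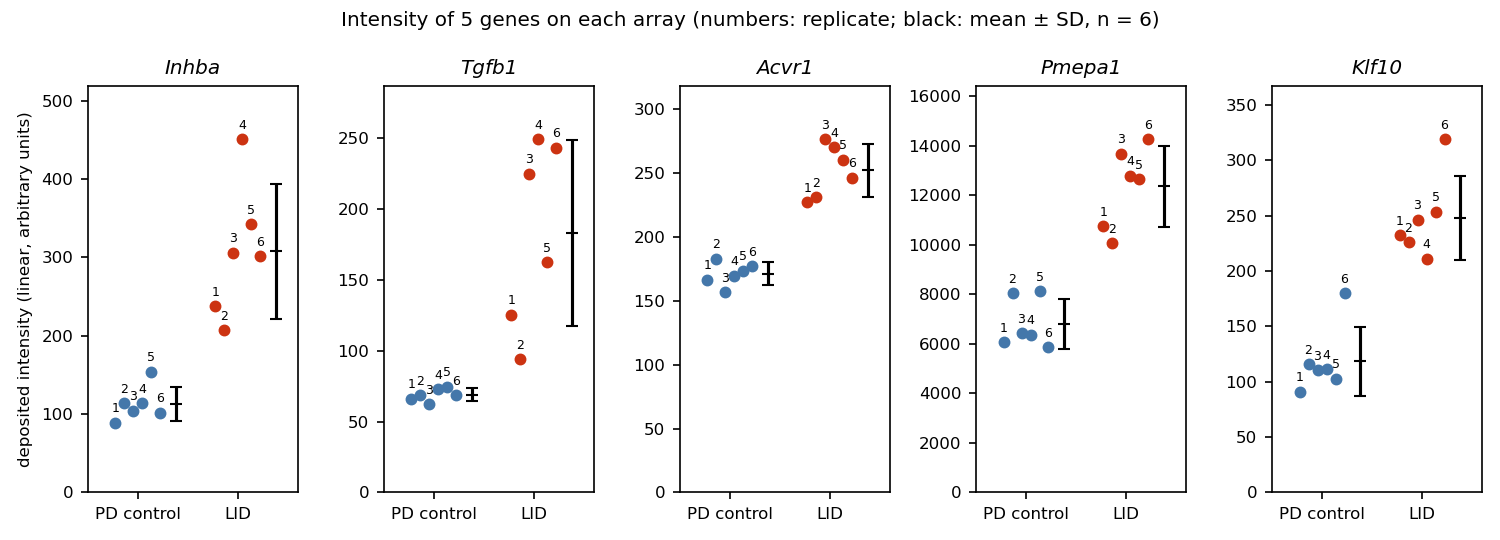
Deposited intensity (linear, arbitrary units) of each gene on the 6 PD control and 6 LID arrays, 1 point per array with its replicate number, and mean ± SD in black. In all 5 panels every LID point lies above every PD control point, and Pmepa1 has the highest axis, from 5879 to 14282.

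The groups did not overlap in any of the 5 genes, with the lowest LID value above the highest control. Of all probes 3.34% had that pattern, and 6.12% had groups that did not overlap in either direction. The genes were chosen on this comparison, so nothing is read from that count. Fewer cells of a type and less RNA per cell cannot be told apart in pieces of whole striatum. Without PD control replicates 1, 3 and 6, whose markers of striatal neurons were low, the log2 differences were 1.21 for Inhba, 1.20 for Tgfb1, 0.51 for Acvr1, 0.72 for Pmepa1 and 1.12 for Klf10.

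Striatal projection neuron markers were present in both groups, Drd1, the D1 dopamine receptor gene, among them (mean intensity 949.5 in PD control and 1397 in LID). Of 15 measured genes of that list 7 rose and none fell, where 6.47% of all probes rose and 5.54% fell. The 7 were Drd1, Pdyn (log2 difference 1.90), Tac1 (1.25), Ptpn5, Adcy5, Foxp1 and Strn. Among those that did not pass, Ppp1r1b differed by 0.07, Adora2a by 0.01, Rgs9 by -0.02, Pde10a by 0.05 and Rasd2 by 0.27. The summed intensity of the 15 genes ran from 44336 to 66905 in PD control and from 55358 to 70145 in LID. Of 11 astrocyte markers 4 rose and none fell (summed intensity 29352 to 35999 in PD control, 32582 to 40024 in LID). Of 13 microglial markers none rose and 1, Aif1, fell (6716 to 8393 in PD control, 6316 to 8129 in LID). Of 9 endothelial markers 2 rose and 1 fell (2538 to 3320 and 2480 to 2958). None of 12 choroid plexus and ependymal markers passed, although their summed intensity differed widely within both groups (645 to 25949 in PD control, 1063 to 17487 in LID). The other 4 marker lists had 0 to 2 members higher and 0 to 2 lower. No marker was at 0, since the lowest value of the table was 36.5, and the part of these cell types in the differences was not tested.

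Variation among arrays of the same group was not used to choose the genes. LID replicates 1 and 2 were the lowest arrays for 4 of the 5 genes, Klf10 being the exception, and PD control replicate 5 was the highest control for Inhba, Tgfb1 and Pmepa1. Some sums of cell type markers were also extreme in these arrays. LID replicates 1 and 2 had the highest summed choroid plexus markers of their group (17487 and 13762, the others 1063 to 13594) and the lowest summed striatal neuron markers (56219 and 55358, the others 62494 to 70145). LID replicate 5 had a choroid plexus sum of 13594. It lay above its group's log2 mean for Inhba (342), Acvr1 (261), Pmepa1 (12654) and Klf10 (254), and below it for Tgfb1 (162). Replicates 1 and 2 also had the highest sums of vessel wall and meningeal markers (18753 and 16781). Their endothelial sums were the lowest and the highest of the group (2480 and 2958). PD control replicate 5 had the highest sum of striatal neuron markers among the controls (66905), and the part of these markers in the shared variation was not tested. Across the 6 LID arrays Tgfb1 and Pmepa1 correlated at r = 0.94 (rho = 0.83, exact permutation p = 0.0083, two-sided, and adjusted p = 0.17 over 20 relations). Without the 2 arrays farthest from the median of Tgfb1, r was 0.53 over 4 arrays. Inhba and Tgfb1 correlated at r = 0.82 in LID (rho = 0.77, exact permutation p = 0.053, adjusted p = 0.26) and at r = 0.71 in PD control (rho = 0.83, exact permutation p = 0.11, adjusted p = 0.32). Leaving out the 2 arrays farthest in Inhba gave r = 0.55 and 0.60.

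Inhba and Pmepa1 correlated at r = 0.78 in PD control (rho = 0.77, exact permutation p = 0.031, adjusted p = 0.26), or 0.69 without the 2 farthest arrays. For the 12 relations without Klf10, r ran from 0.31 to 0.94. Without the 2 arrays farthest from the median of the first gene it ran from -0.44 to 0.78 over 4 arrays. It dropped from 0.74 to -0.44 for Acvr1 and Pmepa1 in LID. For Tgfb1 and Acvr1 it dropped from 0.77 to 0.025 in LID and from 0.60 to 0.041 in PD control. Leaving out the farthest arrays narrows the range and leaves 4 arrays, so these drops do not show what the relations rested on. For the 8 relations with Klf10, r ran from -0.32 to 0.60. No relation passed after adjustment, where 2 of 20 had an unadjusted exact permutation p under 0.05 by Pearson's r and 0 by Spearman's rho. With 6 arrays a group the smallest possible p of Spearman's rho is 0.0028, and 1 such relation among 20 would be adjusted to 0.056. For Pearson's r the smallest possible p can be lower.

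**Figure D2:**
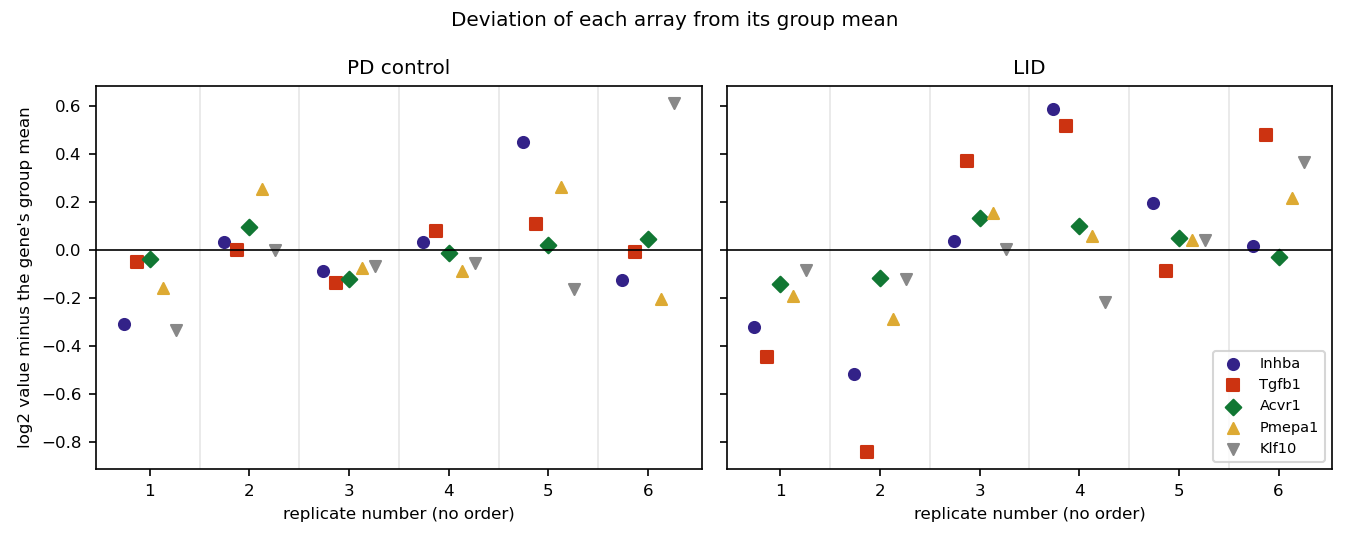
Log2 value of each array minus the mean of its group, for the 5 genes, by replicate number, PD control on the left and LID on the right. In LID replicates 1 and 2 all 5 genes lie below their group mean, down to -0.84 for Tgfb1 in replicate 2, and Klf10 in PD control replicate 6 lies 0.61 above it.

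The named genes whose deviations from the group means were most like those of each gene were found among 9213 other genes over the 12 arrays, as a measure of likeness with no test. For Inhba they were Plekha4 (r = 0.94), the homeobox gene Meis1 (r = 0.94) and the serpin gene Serpinb5 (r = 0.93). For Tgfb1 they were Nptx2, a neuronal pentraxin gene (r = 0.93), the kinase gene Pim1 (r = 0.92) and the proteasome gene Psmc3 (r = 0.92). The likeness of Nptx2 to Tgfb1 lay in the LID arrays (r = 0.98) and not in the control arrays (r = -0.087). For Acvr1 they were Shmt2, a mitochondrial enzyme gene of folate metabolism (r = 0.88), Mettl6 (r = 0.88) and Dph2 (r = 0.87). For Pmepa1 they were Fbxo15 (r = 0.96), the zinc transporter gene Slc39a3 (r = 0.95) and the nucleoporin gene Nup93 (r = 0.94). For Klf10 they were Eif4e3 (r = 0.93), Ctcf (r = 0.90) and Brd1 (r = 0.89). There were 3 such genes for each chosen gene. Of these, Plekha4 (log2 difference 0.60), Nptx2 (1.01), Shmt2 (0.33) and Dph2 (0.15) passed the threshold between LID and PD control. Their limma adjusted p was 0.0031, 0.0098, 0.0031 and 0.031. The others did not pass, where 13.5% of the 9218 named genes passed, at 1 probe each.

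The wider pathway was described through 9 lists of ligands, receptors, Smads, inhibitors, ligand activation, targets, BMP arm, non-Smad mediators and neuronal activity genes. They named 175 genes, of which 120 were measured, the 5 chosen genes included. Of the other 115, 18 rose and 5 fell in LID (limma, Benjamini-Hochberg adjusted p under 0.05 over all 13375 probes) and 92 did not pass. The share that passed was 20%, where 12.0% of all probes and 13.5% of the 9218 named genes, at 1 probe each, passed. It was 15.7% higher and 4.35% lower, against 6.47% and 5.54% of all probes and 7.46% and 6.03% of named genes. The lists were drawn up with earlier results of these data known, so these shares are a description and nothing is read from their excess. Without PD control replicates 1, 3 and 6, 13 of the 23 genes passed and 6 others gained a call, where 7.92% of all probes passed. The median log2 difference of the 115 genes was 0.021, and that of all probes was -0.0036. The count of genes that fell moved from 5 to 2 without PD control replicate 6 or LID replicate 3 or 4, and to 3 without PD control replicate 2, 3 or 5 or LID replicate 5.

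**Figure D3:**
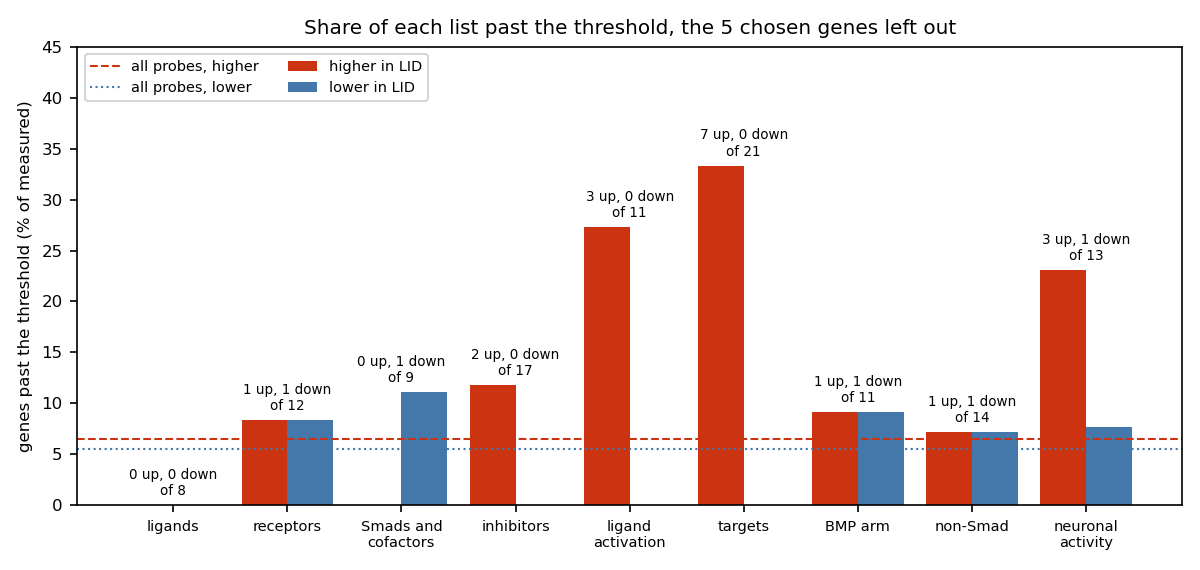
Percent of the measured genes of each list that were higher (red bars) or lower (blue bars) in LID past the threshold, the 5 chosen genes left out, with counts above the bars and the shares over all probes as dashed (6.47%) and dotted (5.54%) lines. The target list has the tallest bar, 7 of 21 higher, and the ligand list has none.

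Among the ligands, none of 8 measured genes beside Inhba and Tgfb1 passed, where 12.0% of all probes passed. An unadjusted limma p under 0.05 was found for 1 of them. Inha, which encodes the alpha subunit that turns beta subunits into inhibin, differed by -0.13 ± 0.09 SE (95% interval -0.316 to 0.065). Tgfb2 differed by -0.36 ± 0.16 (-0.691 to -0.019, adjusted p = 0.17), and its control arrays ran from 179 to 349 where LID ran from 146 to 223. Without PD control replicates 1, 3 and 6, Tgfb2 differed by -0.09 (adjusted p = 0.73). Tgfb3 was dim in both groups (67.3 and 65.0) and differed by -0.05 (95% interval -0.137 to 0.042). The Inhbb gene, for the other main activin subunit, had no named probe here.

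Of 12 measured receptor genes beside Acvr1, 1 rose and 1 fell (8.33% each way, against 6.47% and 5.54% of all probes). Acvr2b, a type II receptor for activins, ran from 574 to 802 in PD control and from 436 to 536 in LID, with no overlap, and fell by 0.43 on the log2 scale (SE 0.08, adjusted p = 0.0039). Amhr2, the type II receptor for anti-Mullerian hormone, ran from 86.2 to 134 in PD control and from 137 to 196 in LID. It rose by 0.75 ± 0.11 (adjusted p = 0.0012), although the highest control, replicate 2, nearly reached the lowest LID array, also replicate 2. The other 10 did not pass. They included the type I receptor genes Tgfbr1 (-0.02, 95% interval -0.116 to 0.068), Acvr1b (0.02) and Bmpr1a (-0.13, -0.260 to -0.005) and the type II receptor genes Acvr2a (-0.01) and Bmpr2 (0.26, -0.171 to 0.695). Acvr1b and Acvr2a were dim, with control means of 52.0 and 66.9. The TGF-beta type II receptor gene Tgfbr2 had no named probe here.

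The Smads that carry the signal showed no call. Smad2 differed by -0.01 (95% interval -0.146 to 0.129), Smad4, the shared partner, by -0.02 (-0.112 to 0.076) and Smad1, of the BMP branch, by -0.15 (-0.265 to -0.041, adjusted p = 0.074). Smad1 passed without LID replicate 6 (-0.19, adjusted p = 0.017). Smad5 was dim (64.0 in PD control) and differed by 0.02. Zfyve16, a gene for an endosomal Smad anchor, fell by 0.22 (adjusted p = 0.039), a call lost in 8 of 12 fits that left out 1 array. It was the only one of 9 measured genes of Smads and cofactors past the threshold (11.1%, where 12.0% of all probes passed). Smad3 had no named probe here.

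Of 17 measured inhibitor genes that were not among the 5 chosen genes, 2 rose (11.8%) and none fell. Of all probes 6.47% rose and 5.54% fell. Smad7, which blocks type I receptors and is itself induced by the pathway, ran from 122 to 159.8 in PD control and from 162 to 185 in LID. It rose by 0.30 ± 0.07 (adjusted p = 0.015), and without PD control replicates 1, 3 and 6 it differed by 0.22 (adjusted p = 0.096). Ppm1a, a phosphatase gene, rose by 0.14 ± 0.04 (adjusted p = 0.037), a call lost in 8 of 12 fits that left out 1 array. Fst, which encodes the activin-binding protein follistatin, differed by -0.32 ± 0.18 (-0.706 to 0.075), with PD control replicate 5 at 569.6 and the other arrays of both groups between 226 and 377. The corepressor gene Tgif1 differed by 0.01, from a dim signal, and Skil had no named probe here.

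Of 11 measured genes of TGF-beta release and activation, 3 rose (27.3%) and none fell, where 6.47% of all probes rose and 5.54% fell. Mmp14, a membrane metalloproteinase that can free latent TGF-beta, ran from 87.5 to 167 in PD control and from 153 to 231 in LID and rose by 0.79 ± 0.14 (adjusted p = 0.0032). PD control replicate 1 alone lay within the LID range. Mmp9, a secreted metalloproteinase, ran from 85.8 to 105 in PD control and from 103 to 187 in LID and rose by 0.52 ± 0.12 (adjusted p = 0.014), and without PD control replicates 1, 3 and 6 it differed by 0.51 (adjusted p = 0.080). Plat, the tissue plasminogen activator gene, rose by 0.38 ± 0.11 (adjusted p = 0.036), a call lost in 9 of 12 fits that left out 1 array. LID replicates 1 and 2 were the lowest LID arrays for Mmp9, as they were for Inhba, Tgfb1, Acvr1 and Pmepa1. For Mmp14 the lowest were LID replicates 4 and 6, and for the target gene Timp1 they were 6 and 2. How often this order occurs over all genes was not computed.

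Of 21 measured genes widely used as TGF-beta targets, 7 rose (33.3%) and none fell, and 14 missed the threshold (median log2 difference 0.13). Of all probes 6.47% rose and 5.54% fell. The groups did not overlap, with LID above, in 6 of the 21, where 3.34% of all probes had that pattern, and all 6 were among the 7 that passed. This list too was drawn up with earlier results known, so nothing is read from these counts. Timp1, a metalloproteinase inhibitor gene, ran from 92.2 to 128 in PD control and from 307 to 1723 in LID and rose by 2.70 ± 0.32 (adjusted p = 0.00029). Its LID arrays differed 5.61-fold, with replicate 4 highest and replicate 6 lowest. Fn1, the fibronectin gene, ran from 115 to 174 and from 183 to 298 and rose by 0.82 ± 0.12 (adjusted p = 0.00086).

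Lox, the gene of the collagen cross-linking enzyme lysyl oxidase, ran from 54.6 to 77.4 in PD control and from 81.5 to 98.7 in LID and rose by 0.51 ± 0.07 (adjusted p = 0.0010). Vegfa, an endothelial growth factor gene, rose by 0.36 ± 0.05 (adjusted p = 0.00052) and Cdkn1a, a cell cycle inhibitor gene, by 0.28 ± 0.05 from a dim signal (50.4 in PD control, adjusted p = 0.0050). The basement membrane collagen gene Col4a1 rose by 0.24 ± 0.06 (adjusted p = 0.025), a call lost without PD control replicate 4 or LID replicate 4, where the differences were 0.21 and 0.22. Gadd45b, a stress response gene, rose by 0.33 ± 0.10 (adjusted p = 0.049), a call lost in 9 of 12 such fits. Several of these genes also respond to other signals.

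In the BMP arm, 1 of 11 measured genes rose and 1 fell (9.09% each way, against 6.47% and 5.54% of all probes). Dlx5, a homeobox gene expressed in striatal precursors and interneurons, rose by 0.36 ± 0.10 (adjusted p = 0.028), and without PD control replicates 1, 3 and 6 it differed by 0.15 (adjusted p = 0.22). Id3, a target of BMP Smads, fell by 0.30 (SE 0.09, adjusted p = 0.0497), while Id1 (0.01, 95% interval -0.153 to 0.181) and Id2 (-0.09, -0.288 to 0.1001) did not pass, nor did the ligand gene Bmp4 (-0.08). The Id3 call was lost in 9 of 12 fits that left out 1 array and the Dlx5 call in 7.

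Of 14 mediators that are not Smads, 2 passed, both of them kinase genes upstream of p38. The share was 7.14% each way, against 6.47% higher and 5.54% lower of all probes. Map2k6 ran from 541 to 716 in PD control and from 320.4 to 463 in LID, with no overlap, and fell by 0.65 (SE 0.08, adjusted p = 0.00040). Map2k3 rose by 0.30 ± 0.09 (adjusted p = 0.041), with values of 482 to 661 and 596 to 822 that overlapped, a call lost in 9 of 12 fits that left out 1 array. The genes encode kinases that act on the same p38 substrate.

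The list of activity-induced neuronal genes, to which Inhba belongs in mouse neurons, had 3 of 13 measured genes higher and 1 lower. These shares were 23.1% and 7.69%, against 6.47% and 5.54% of all probes. Nptx2 ran from 169.6 to 241 in PD control and from 219 to 659 in LID (1.01 ± 0.22, adjusted p = 0.0098), and Ptgs2, the inducible prostaglandin synthase gene, from 477 to 689.7 and from 770.5 to 1122 (0.77 ± 0.11, adjusted p = 0.00063). Both had LID replicates 2 and 1 as their lowest LID arrays, as had Gadd45g, an order whose share over all genes was not computed. Gadd45g rose by 0.53 ± 0.12 (adjusted p = 0.011). Bcl6, a transcriptional repressor gene, fell by 0.35 (SE 0.09, adjusted p = 0.025), a call lost in 5 of 12 fits that left out 1 array. Without PD control replicates 1, 3 and 6, Bcl6 differed by -0.21 (adjusted p = 0.22), Nptx2 by 0.99 (adjusted p = 0.064) and Gadd45g by 0.47 (adjusted p = 0.088). That fit also added calls for Egr1, at 0.55 (adjusted p = 0.022), and Fos, at 0.59 (adjusted p = 0.023). Both are immediate early genes and were named after their values were seen. Arc (0.70, adjusted p = 0.088), Junb (-0.04), Atf3 (0.07), Npas4 (0.02) and Nr4a1 (-0.06), of the same list, did not pass there. Nor did Bdnf (0.18) and Serpinb2 (-0.01). Atf3, Npas4 and Nr4a1 were dim, with PD control means of 55.3, 58.0 and 64.8. Over all arrays Egr1 differed by 0.37 (adjusted p = 0.27) and Fos by 0.30 (adjusted p = 0.40).

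**Figure D4:**
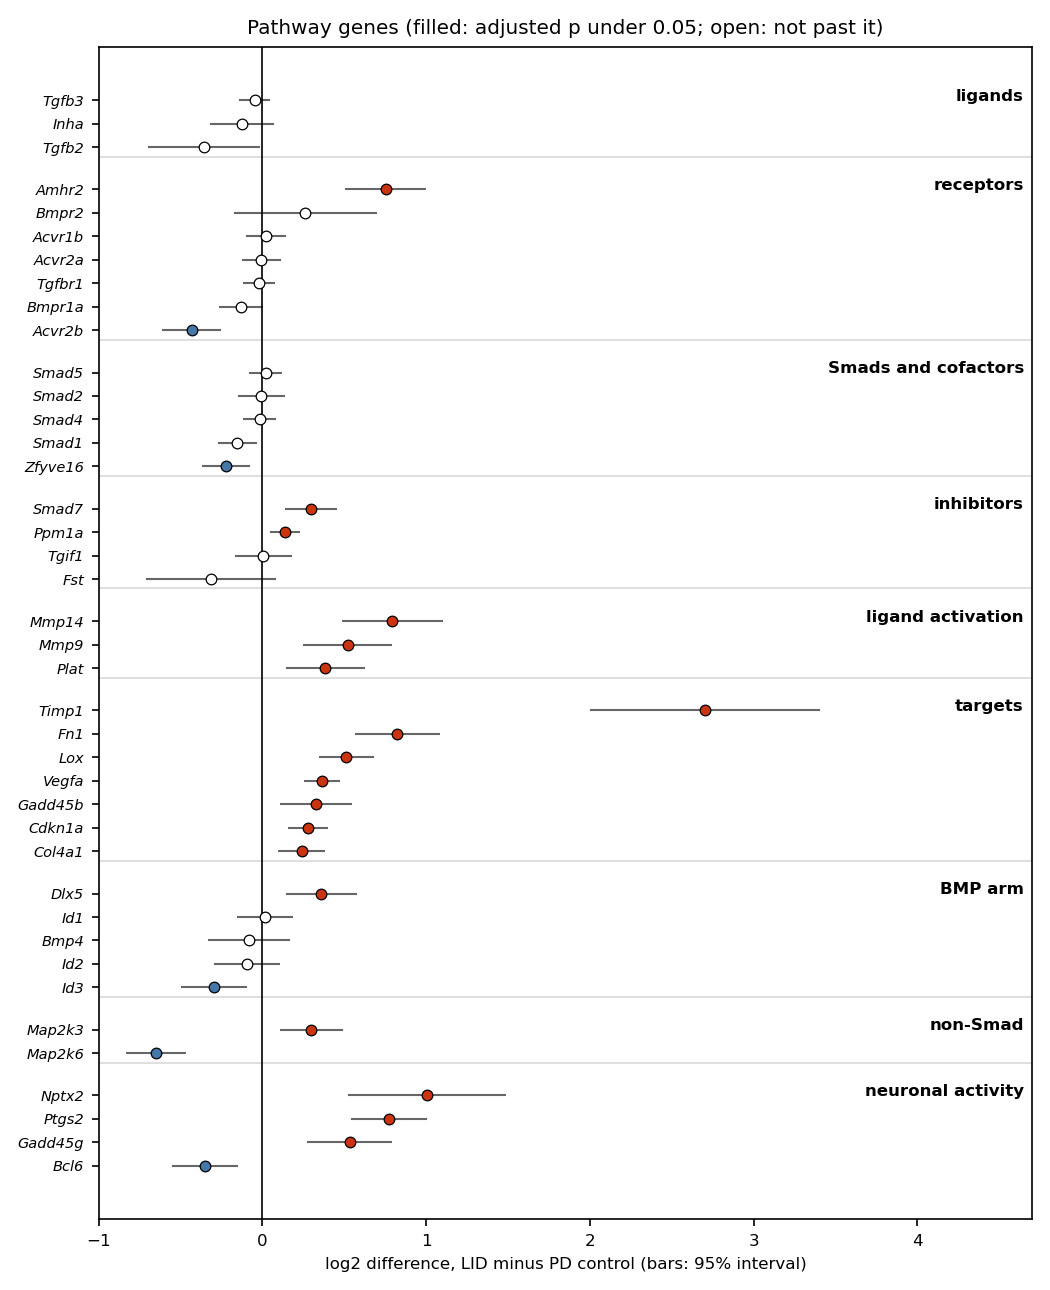
Log2 difference, LID minus PD control, of the pathway genes that passed the threshold (red for higher, blue for lower) and of further genes named whatever their values (open), with 95% intervals, grouped by list. Timp1 stands farthest to the right at 2.70, the ligand genes and Smad1, Smad2, Smad4 and Smad5 are open, and Map2k6 at -0.65 and Acvr2b at -0.43 lie to the left.

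Promoter windows were matched for 17 of the 23 pathway genes past the threshold. The core TGACG was present in 5 of them, Bcl6, Cdkn1a, Gadd45b, Nptx2 and Timp1, where 30.8% of the windows of genes on the array held it. The Smad box CAGAC was present in 4, Gadd45g, Map2k3, Map2k6 and Vegfa, against 48.6% of array genes. None of the 17 held TGACGTCA (3.11% of array genes), TGANTCA (5.29%) or GTCTAGAC (0.212%). The whole cAMP response element of Pmepa1 was therefore the only one among the 20 windows read for the chosen genes and the pathway genes past the threshold.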

How the data were processed

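Total RNA of rat striatum, biotin-labelled, was measured on 1-colour Illumina arrays, per the labels. The table as deposited holds intensities on a linear scale, which the authors had made comparable between arrays (the arrays share an upper quartile of 425.7 and a maximum of 22793). Software, background correction and build are not stated in these sources.

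The intensities were corrected with normexp (offset 50), normalised between arrays by quantiles and converted to log2 (limma 3.58.1, R 4.3.3), so fold changes of dim genes are understated. All 13375 probes were tested with lmFit and eBayes, group as the only term, two-sided, with Benjamini-Hochberg adjustment and a threshold of 0.05. The fit and the adjustment were tested on simulated log2 values, drawn independently for each probe and array. Background correction and normalization were not part of that test. A gene is its probe with the highest mean, named from GEO's platform annotation (9434 probes had 1 symbol and 3941 none), and gene positions and promoters are RefSeq's on GRCr8.

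The genes, lists and tests were chosen with earlier results of these data known. Genes were named by rule: the 5 chosen genes, pathway genes past the threshold, 25 fixed genes (20 measured) and the 3 genes most like each chosen gene. Replicate numbers are those of the sample descriptions, 1 to 6 in both groups. The number of arrays limits the precision. No fit dropped or imputed an array unless stated. Alternatives covered the scale, normalization, offset, a dim-probe filter, a replicate block, array weights, variance models and left-out arrays.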

Additional observations from a re-analysis of the deposited data

Results flagged for a closer look

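In groups of 6 arrays, 1 array stood apart from the other 5 in 5 of 90 groups examined (the chosen and the named pathway genes, LID and PD control apart), by a gap to the nearest array that exceeded Dixon's 95% critical share of the group's range. Chance flags about 1 group in 20. Klf10 in PD control replicate 6 had a log2 value of 7.53, with the other controls between 6.59 and 6.93. Zfyve16 in the same array was at 7.45, with the others between 7.19 and 7.25. Acvr1b in LID replicate 2 was at 6.11 (others 5.80 to 5.85), Id1 in PD control replicate 3 at 7.15 (others 7.43 to 7.59) and Bmp4 in PD control replicate 4 at 6.98 (others 6.60 to 6.74).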

How the results depend on the processing

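The differences of the 5 chosen genes kept their direction in all 22 alternatives, and moved by over 1 SD only with an offset of 1, to 1.92 for Inhba, 2.31 for Tgfb1, 0.71 for Acvr1 and 1.51 for Klf10, where Pmepa1 moved less. Leaving out 1 array gave 1.26 to 1.48 for Inhba, 1.16 to 1.43 for Tgfb1, 0.51 to 0.57 for Acvr1, 0.82 to 0.92 for Pmepa1 and 0.98 to 1.17 for Klf10. Over all probes, 865 were higher and 741 lower. Without 1 array these counts ran from 615 to 857 and from 497 to 707, and without PD control replicates 1, 3 and 6 they were 524 and 535, with fewer arrays. Of the pathway genes, 18 were higher and 5 lower, and without 1 array 12 to 18 and 2 to 6. With an offset of 1 the lower count was 3 (the cause was not tested). Whether replicate numbers pair the arrays was not tested. Same-numbered arrays deviated together at over 0.1 in 2 of 6 pairs (-0.29 to 0.48), and 2 LID arrays correlated best with their own number. With the replicate number as a block, 740 probes were higher and 592 lower, and 15 and 5 pathway genes. Over the 40 named pathway genes none reversed, and of 874 gene and setting combinations 782 kept their side of the threshold, 90 lost it and 2 gained it. Of the 23 called genes 14 passed in every fit without 1 array, and without the 3 controls 13 passed and 6 further pathway genes gained a call, 5 higher and 1 lower (Rgma, Zfyve9, Nog, Ltbp4, Fos and Egr1, named after their values were seen). Low signal limits how far a dim probe can fall.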
